A study of Arabidopsis thaliana with 6 samples.

Results

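COR47, COR15A, COR15B, KIN1 and KIN2 are 5 cold-regulated genes of Arabidopsis thaliana, and they were followed in petioles, the leaf stalks, of plants in a dense canopy and of plants grown singly. They were picked by name, through an annotation that pairs the array's probe sets (groups of short probes for a transcript) with genes. COR47, COR15A and COR15B each had 1 probe set of their own, and KIN1 and KIN2 shared 1, so that 4 of the 22746 probe sets tested carry the 5 genes. Values of the shared probe set cannot be divided between KIN1 and KIN2.

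Canopy plants (3 arrays) were set at 2066 plants per m2 straight after potting, and single plants (3 arrays) stood in pots kept apart. All plants had the same chamber, with 9 h of light at 20°C and 15 h of dark, a seed stratification of 3 days at 4°C, and potting after 10 days. Young petioles were taken about 23 days after sowing, when leaves covered the canopies' ground by a leaf area index of 0.9 (leaf area over ground area), and each array holds 2 petioles from each of 4 plants. Neither group is described as having had a cold treatment after stratification. The labels name no ecotype.

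In the cold, plants switch on CBF transcription factors (also called DREB1), which bind a short promoter element and raise a set of COR ("cold-regulated") genes. Many of the products are small, very hydrophilic proteins that protect membranes and enzymes when cells lose water, and several of these genes also answer to drought and to abscisic acid. In Arabidopsis the circadian clock, day length and light quality act on the CBF pathway as well, so these genes are also read in plants that are not cold. COR47 is a dehydrin, COR15A and COR15B are chloroplast proteins that stabilise membranes during freezing, and KIN1 and KIN2 (KIN2 is also known as COR6.6) are small hydrophilic proteins first noted for a resemblance to fish antifreeze proteins.

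None of the 4 probe sets passed the test between canopy and single plants. The shared KIN1/KIN2 probe set had the largest difference of the 4, 1.20-fold higher in the canopy, followed by COR47 at 1.17-fold. COR15A and COR15B differed by 1.00-fold and 1.06-fold. All 4 were read lowest, among the canopy arrays, on canopy replicate 1. The test was limma's, fitted to the log2 values of all probe sets with Benjamini-Hochberg adjustment and a threshold of 0.05. By it 0.677% of all probe sets were called, 97 higher and 57 lower in the canopy, and at an unadjusted p under 0.05 it found 12.2% of all probe sets and 1 of the 4 (KIN1/KIN2).

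Over the whole array, canopy replicate 1 stood apart from the other canopy arrays on the second principal component, but not on the first. On the first, with 38% of the variance, it scored -17.24, and canopy replicates 2 and 3 scored -18.85 and -11.92. The single-plant arrays scored 13.03 to 19.94 there. On the second, with 20.6% of the variance, canopy replicate 1 scored 22.61 and canopy replicates 2 and 3 scored -8.94 and -15.87. The single-plant arrays scored -1.3 to 4.15 on it. The differences of the COR and KIN genes and of the cold-list genes named below are therefore given with and without canopy replicate 1. For actin, whose 3′ signal minus its 5′ signal reflects how intact the RNA was, this difference was 1.28 on canopy replicate 1, 1.39 and 1.5 on canopy replicates 2 and 3, and 1.53 to 1.71 on the single-plant arrays (log2), and its groups did not overlap. For GAPDH the same quantity was highest, not lowest, on canopy replicate 1, at -0.07. It was -0.22 and -0.34 on canopy replicates 2 and 3 and -0.46 to -0.18 on the single-plant arrays, so its groups overlapped. The part of either in the results was not tested. The petiole origin could not be checked by defining markers, since 3 of the 33 markers listed for other cell types (the guard-cell gene FAMA, the trichome gene TRY and the meristem gene CLV3) have a named probe set here, and limma called 0 of the 3 (0 also at an unadjusted p under 0.05).

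**Figure D1:**
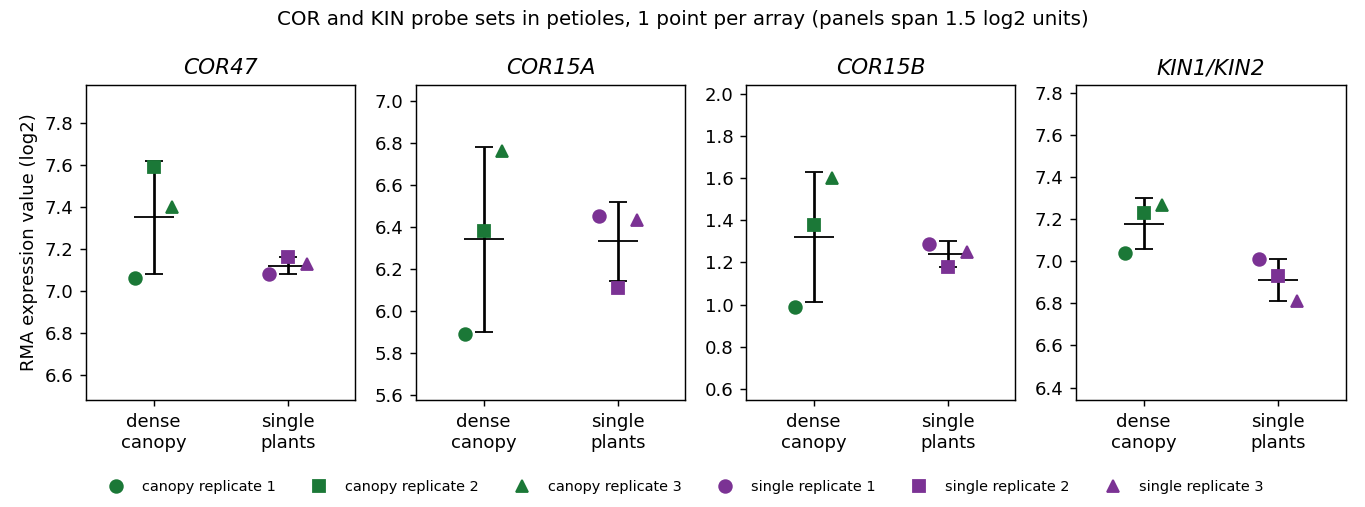
RMA expression values (log2) of the 4 probe sets, dense canopy left and single plants right, with 1 point per array and bars for the mean and SD of 3 arrays. The groups are apart for KIN1/KIN2 alone, and canopy replicate 1 (circles) is the lowest canopy array in every panel.

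The KIN1/KIN2 probe set read 7.04, 7.23 and 7.27 in canopy replicates 1 to 3, against 7.01, 6.93 and 6.81 in single-plant replicates 1 to 3 (log2). Every canopy array was above every single-plant array, by a margin of 0.04 between canopy replicate 1 and single replicate 1 that is smaller than the spread within either group. Groups did not overlap for 17% of all probe sets, and for 7.71% with the canopy higher. Canopy arrays averaged 7.18 ± 0.12 and single-plant arrays 6.91 ± 0.10 (log2, SD, n = 3 each). The difference of 0.27 ± 0.10 (log2, SE; 95% interval 0.04 to 0.49) had a limma adjusted p of 0.321 and did not pass. In folds the interval ran from 1.03 to 1.41.

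COR47, the acidic dehydrin, read 7.06, 7.59 and 7.40 in canopy replicates 1 to 3, against 7.08, 7.16 and 7.13 in single-plant replicates 1 to 3 (log2). Canopy replicates 2 and 3 were above all single-plant arrays, and canopy replicate 1 was below them all. The canopy mean was 7.35 ± 0.27 and the single-plant mean 7.12 ± 0.04 (log2, SD, n = 3 each). The difference was 0.23 ± 0.13 (log2, SE; 95% interval -0.07 to 0.53; limma adjusted p = 0.561). In spread, the canopy arrays spanned 0.52, more than 88.9% of all probe sets did, and the single-plant arrays 0.07, more than 9.9% did.

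COR15A, whose protein works in the chloroplast stroma, read 5.89, 6.38 and 6.76 in canopy replicates 1 to 3, against 6.45, 6.11 and 6.43 in single-plant replicates 1 to 3 (log2). The canopy arrays held both the lowest and the highest of the 6 values, and the single-plant arrays lay between. Canopy arrays averaged 6.34 ± 0.44 and single-plant arrays 6.33 ± 0.19 (log2, SD, n = 3 each), a difference of 0.01 ± 0.20 (log2, SE; limma adjusted p = 0.995). Its 95% interval, -0.45 to 0.47, leaves room for 0.731-fold to 1.38-fold, so the near-zero difference does not show that COR15A was the same in both. The canopy span of 0.87 was wider than that of 98.4% of all probe sets.

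COR15B, the neighbouring copy of COR15A with no protein-coding gene between them, gave a dim signal close to the array medians of 1.28 to 1.32. It read 0.99, 1.38 and 1.6 in canopy replicates 1 to 3, against 1.29, 1.18 and 1.25 in single-plant replicates 1 to 3 (log2). As for COR15A, canopy replicate 1 was the lowest and canopy replicate 3 the highest of the 6 arrays. Canopy arrays averaged 1.32 ± 0.31 and single-plant arrays 1.24 ± 0.06 (log2, SD, n = 3 each), with a difference of 0.08 ± 0.15 (log2, SE; 95% interval -0.25 to 0.42; limma adjusted p = 0.892). Near the lower end of the scale RMA values compress changes, so a fold here may be understated.

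The difference of the 2 COR15 copies' log2 values within each array says nothing of which copy is more abundant. COR15A minus COR15B was 4.90, 4.99 and 5.16 in the canopy, against 5.17, 4.94 and 5.18 in single plants. The canopy mean was 5.02 ± 0.13 and the single-plant mean 5.09 ± 0.14 (SD, n = 3 each). The groups overlapped, and the difference of -0.08 gave p = 0.5 in a two-sided exact permutation test, which cannot go below 0.1 with 3 against 3 and so could not pass. With COR15B this dim, whether the copies moved unequally cannot be told from these values. Within the canopy the COR15A minus COR15B value spanned less than either copy did by itself, since both were low on replicate 1 and high on replicate 3. In single plants it spanned less than COR15A (0.34) but more than COR15B (0.11).

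**Figure D2:**
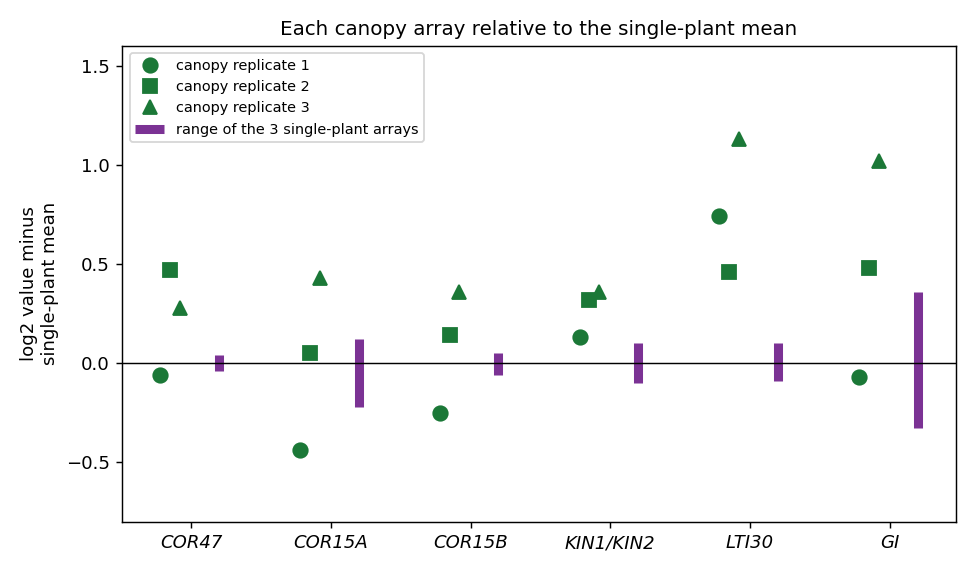
Log2 value of each canopy array minus the single-plant mean (green points) for the 4 probe sets, LTI30 and GI, with the range of the 3 single-plant arrays as a purple bar. Canopy replicate 1 (circles) lies at or below the single-plant mean for COR47, COR15A, COR15B and GI, and above it for KIN1/KIN2 and LTI30.

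Canopy replicate 1 was the lowest canopy array for 4 of the 4 probe sets, and for 36.8% of all probe sets. It was below the mean of canopy replicates 2 and 3 by 0.43 for COR47, 0.68 for COR15A, 0.50 for COR15B and 0.21 for KIN1/KIN2 (log2). Without it, COR47 differed from single plants by 0.37 ± 0.10, KIN1/KIN2 by 0.33 ± 0.10, COR15B by 0.25 ± 0.11 and COR15A by 0.23 ± 0.15 (log2, SE, 2 canopy and 3 single-plant arrays). Both remaining canopy arrays were then above all single-plant arrays for COR47, COR15B and KIN1/KIN2, as for 14.2% of all probe sets, but not for COR15A, where canopy replicate 2 stood under 2 single-plant arrays. The limma adjusted p was 0.165 for COR47, 0.206 for KIN1/KIN2, 0.371 for COR15B and 0.595 for COR15A, so limma called 0 of the 4 in this fit too, in which 0.699% of all probe sets were called. At an unadjusted p under 0.05 it found 3 of the 4, all but COR15A, and 13.2% of all probe sets. As canopy replicate 1 is the lowest canopy array for all 4, leaving it out raises each difference by construction, and the counts and shares without it are no support for a rise.

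**Figure D3:**
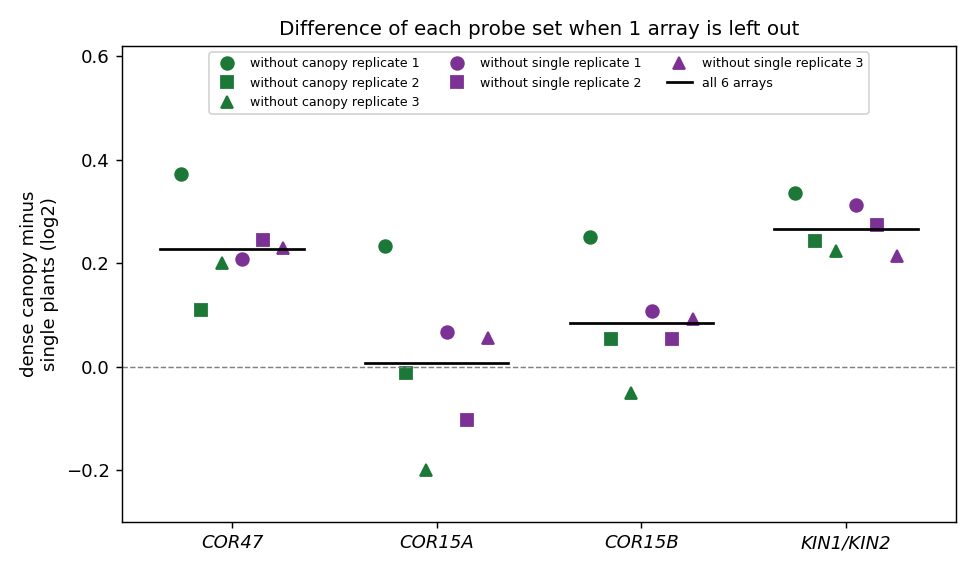
Difference between dense canopy and single plants (log2) of each probe set with all 6 arrays (black line) and with 1 array left out (green, a canopy array; purple, a single-plant array). KIN1/KIN2 stays between 0.21 and 0.34 and COR47 between 0.11 and 0.37, while COR15A runs from -0.20 to 0.23 and COR15B from -0.05 to 0.25.

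Of 43 other cold-responsive genes in a list, 4 have a named probe set, and limma called 0 higher and 0 lower (1, LTI30, had an unadjusted p under 0.05). Over all probe sets limma called 0.677%, and 12.2% had an unadjusted p under 0.05. The dehydrin LTI30 (also XERO2), a cold- and abscisic acid-induced protein that binds membranes, came nearest. It read 2.1, 1.82 and 2.49 in canopy replicates 1 to 3, against 1.46, 1.34 and 1.27 in single-plant replicates 1 to 3 (log2), so the groups did not overlap. With the canopy higher, groups did not overlap for 7.71% of all probe sets. The LTI30 difference of 0.78 ± 0.16 (log2, SE; 95% interval 0.42 to 1.14), or 1.71-fold, had a limma adjusted p of 0.0769. Its single-plant mean of 1.36 lay close to the array medians of 1.28 to 1.32, so the limit given for the fold of COR15B holds here too. With an intensity trend and robust moderation of the variances, LTI30 passed at an adjusted p of 0.0402, and the adjusted p lay between 0.0402 and 0.232 over all alternatives. Without canopy replicate 1 the difference was 0.80. Unlike the COR and KIN probe sets, LTI30 was not lowest in the canopy on replicate 1, which lay 0.05 below the mean of canopy replicates 2 and 3. The difference between the genes in this respect was not tested. Of the 4 measured genes of this list, 1 (LEA4-5) had canopy replicate 1 as its lowest canopy array, beside 36.8% of all probe sets.

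The 3 other measured genes of that list were dim on all arrays, with means of 0.96 or lower in both groups. COR27, a cold-induced repressor that links the clock to freezing tolerance, differed by 0.09 ± 0.10, its relative COR28 by -0.08 ± 0.11, and LEA4-5, a late embryogenesis abundant protein of drought-stressed tissue, by -0.03 ± 0.09 (log2, SE). Without canopy replicate 1 these differences were 0.09, -0.16 and 0.01. Their limma adjusted p ran from 0.794 to 0.948. The median difference of the 4 genes was 0.03, beside -0.003 for all probe sets (log2). ERD10, the dehydrin gene next to COR47, and the genes RD29A, RD29B, RAB18 and COR413-PM1 could not be followed by name with the annotation used here.

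Of 44 genes that signal cold or regulate CBF genes, 4 have a named probe set. Of these limma called 0, beside 0.677% of all probe sets, and 0 had an unadjusted p under 0.05, beside 12.2%. The CBF genes and ICE1, which encodes an activator of CBF3, are not among the 4. GI (GIGANTEA), a clock protein that also promotes freezing tolerance, read 2.95, 3.50 and 4.04 in canopy replicates 1 to 3, against 3.38, 2.69 and 3.00 in single-plant replicates 1 to 3 (log2). As for COR15A, COR15B and KIN1/KIN2, canopy replicate 1 was the lowest and replicate 3 the highest canopy array. For GI, canopy replicate 1 lay 0.81 below the mean of canopy replicates 2 and 3, and the groups overlapped. Of the 4 measured genes, 2 (GI and ZAT10) had canopy replicate 1 as their lowest canopy array, beside 36.8% of all probe sets. GI differed by 0.48 ± 0.26 (log2, SE; 95% interval -0.12 to 1.07; limma adjusted p = 0.535), and by 0.75 without canopy replicate 1, 0.21 without canopy replicate 3 and 0.31 without single replicate 2.

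EIN3, an ethylene-signalling factor that represses CBF genes, differed by 0.22 ± 0.11 and SIZ1, a SUMO ligase that stabilises ICE1, by 0.18 ± 0.13 (log2, SE). The second, dimmer probe set of SIZ1 differed by 0.13 ± 0.10. ZAT10, a zinc-finger repressor raised by cold and other stresses, differed by 0.05 ± 0.09 (log2, SE). Without canopy replicate 1, EIN3 differed by 0.25, SIZ1 by 0.11 and ZAT10 by 0.06. Leaving out any 1 array gave 0.14 to 0.30 for EIN3, 0.08 to 0.29 for SIZ1 and 0.009 to 0.072 for ZAT10. Adjusted p in limma ran from 0.487 to 0.89 over these 3 genes. All 4 genes had a positive difference, with a median of 0.20, as 49% of all probe sets did. Of 45 genes of abscisic acid synthesis, signalling and response, 0 have a named probe set, so that pathway was not analysed here.

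**Figure D4:**
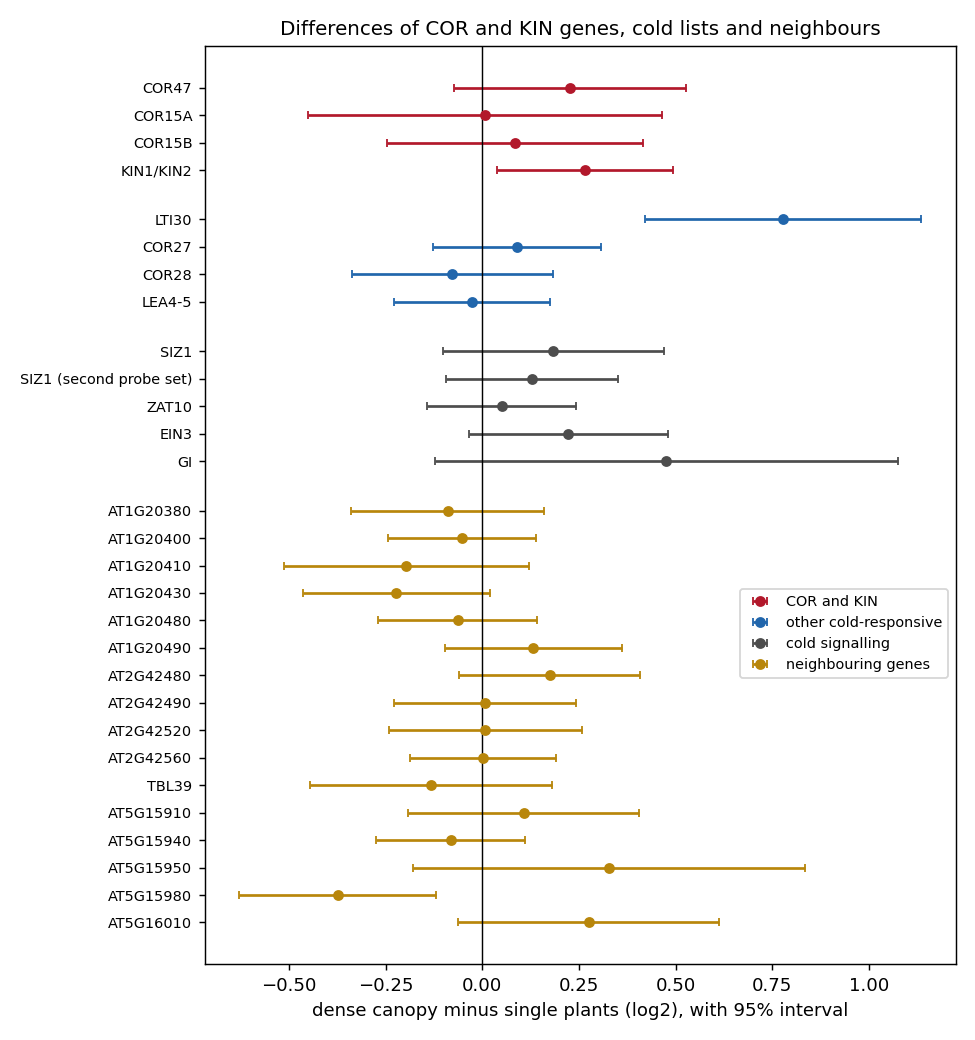
Difference between dense canopy and single plants (log2) with its 95% interval for the 4 COR and KIN probe sets, the measured genes of both cold lists and the measured chromosomal neighbours. Among the genes shown, the intervals of KIN1/KIN2, LTI30 and AT5G15980 leave out 0, and none passed the limma test after adjustment over all probe sets.

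The genes lie at 3 places in the genome, and KIN1 and KIN2, like the COR15 pair, have no protein-coding gene between them. Of 30 protein-coding genes within 5 places of a member, 16 have a named probe set. Of these, 8 had a positive and 8 a negative difference, and 49% of all probe sets had a positive one. In limma 0 of the 16 were called, beside 0.677% of all probe sets, and 1, AT5G15980, had an unadjusted p under 0.05, beside 12.2%. AT1G20430, next to COR47, differed by -0.22 ± 0.11, AT2G42520, next to COR15B, by 0.01 ± 0.11, and AT5G15950, next to KIN1, by 0.33 ± 0.22 (log2, SE). On the other side of the KIN pair, AT5G15980 read 1.85, 1.73 and 1.6 in the canopy, against 2.23, 2.15 and 1.92 in single plants (log2). The groups did not overlap, in the direction opposite to KIN1/KIN2, with a difference of -0.37 ± 0.11 (log2, SE; limma adjusted p = 0.208), and -0.43 without canopy replicate 1. In either direction, groups did not overlap for 17% of all probe sets.

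The genes whose pattern over the 6 arrays was most like each member were sought among the 1-gene probe sets brighter than the median probe set, by the root mean square difference of log2 values after each was centred on its own mean. Nearest to KIN1/KIN2 were AT2G26340, AT2G38640 and AT5G62610, at 0.033 to 0.035. Nearest to COR47 were AT1G74680, AT3G09470 and AT5G61530, at 0.053 to 0.056. COR15B was most like AT5G20220 at 0.037, then RST1 and AT5G07020. COR15A, with the widest span, was most like AT1G29670 and AT5G01790 at 0.071 and 0.073, and then AT5G20220 at 0.099. AT5G20220 thus stood near both COR15 copies, with 3.54, 4.01 and 4.17 in canopy replicates 1 to 3, against 3.92, 3.73 and 3.88 in single-plant replicates 1 to 3 (log2). The list ranks likeness over 6 arrays among 6013 candidates and has no test.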

How the data were processed

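Affymetrix arrays (1 per pooled petiole sample, 6 in all, 100 ng of RNA each) were used as log2 values deposited by the authors, which the submitters' processing notes credit to RMA and R 2.15.0. RMA corrects background, equalises array distributions and summarises probes. The deposited arrays still differed slightly, with medians of 1.284 to 1.296 in the canopy and 1.301 to 1.317 in single plants (log2). Upper quartiles were 2.941 on every canopy array and 2.979 to 2.988 on single-plant arrays. Neither overlapped between groups. The KIN1/KIN2 difference was 0.288 with equal medians and 0.251 with repeated quantile normalization, against 0.266 as deposited. Whether the offset changed its 0.04 margin was not tested. The log2 scale is RMA's convention, and its zero point and the chip definition are not stated in these sources. The lowest value was 0.362, and no detection calls were used, and precision is limited by how few arrays there were.

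Genes were assigned to probe sets by the platform annotation and, by gene number, the RefSeq table of TAIR10.1, used for names and gene order only. Of 22746 probe sets that are not controls, 13513 list 1 gene (13436 matched to RefSeq), 503 several and 8730 none. No gene, probe or promoter sequence was used here. limma 3.58.1 (R 4.3.3, two-sided) compared canopy with single plants over all of them, unfiltered and without a replicate block, and was tested on simulated data. Intervals are 95% intervals of that fit. Nothing in the labels says that the pools came from separate sowings, so p-values measure the spread between these pools. In such bulk samples fewer cells of a type and less RNA per cell cannot be told apart.

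The members and lists were chosen with earlier results of these data known, and the lists of neighbours and of genes named for cold, dehydrins or LEA proteins were added after values were seen. Named were the members, the 4 genes with the smallest p of each list or those that passed, relatives next to a member, and the 3 most alike genes per member. Neighbours were named where adjacent to a member. For a gene with several probe sets the one with the highest mean was used. Alternatives were a replicate block, a filter on levels (above the 30th percentile), equal medians, repeated quantile normalization, trend and robust moderation, array weights, a threshold of 0.1 and leaving out each array.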

Additional observations from a re-analysis of the deposited data

How the results depend on the processing

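The 4 COR and KIN probe sets gave 0 calls in limma under all 13 alternatives, as did the 4 cold-signalling genes. The other cold-responsive genes gave 1 call (LTI30) with trend and robust moderation and 1 at an adjusted p under 0.1. Over all probe sets, the 154 calls became 63 with the replicate block, 369 at an adjusted p under 0.1 and 17 to 159 when 1 array was left out: 37, 17 and 36 without single replicates 1, 2 and 3, and 45 without canopy replicate 2. COR15A turned sign with a repeated quantile normalization, at -0.001, and ran from -0.201 to 0.233 when 1 array was left out, negative without canopy replicate 2 or 3 or single replicate 2. COR15B ran from -0.052 to 0.251, negative without canopy replicate 3. COR47 ran from 0.11 without canopy replicate 2 to 0.372 without canopy replicate 1. KIN1/KIN2 kept its direction, at 0.214 to 0.335, which its non-overlapping groups fix in advance. COR28 ran from -0.16 to 0.011, positive without single replicate 3, and LEA4-5 from -0.066 to 0.01, positive at 0.01 without canopy replicate 1 and 0.009 without single replicate 2. For genes that did not pass, leaving out 1 array gave 0.206 (without canopy replicate 3) to 0.747 for GI, 0.08 (without single replicate 3) to 0.293 (without single replicate 1) for SIZ1, 0.139 (without canopy replicate 3) to 0.299 for EIN3, 0.009 (without single replicate 3) to 0.072 for ZAT10 and 0.035 (without canopy replicate 3) to 0.141 (without canopy replicate 2) for COR27. LTI30 ran from 0.604 to 0.935. The COR15A minus COR15B difference stayed between -0.156 and -0.018. These values are log2 differences, and the causes were not tested. The filter on levels left no value for COR27 and COR28. With the replicate block the limma adjusted p was 0.397 for KIN1/KIN2 and 0.501 for COR47. Same-numbered arrays gave correlations of their deviations of 0.00237, 0.0989 and -0.064, and 2 of the 6 arrays had their highest correlation with their namesake, so the numbers were not taken as pairs.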

Other observations

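Genes outside the members and the lists above whose RefSeq names or synonyms mention cold, freezing, dehydrins or late embryogenesis abundant (LEA) proteins were looked up after the values of the COR and KIN genes had been seen. Of 6 such genes named for cold or freezing, 1 has a probe set of its own. It is SRC2, named after a cold-regulated soybean gene, which read 5.08, 5.22 and 5.19 in canopy replicates 1 to 3, against 5.07, 4.89 and 4.88 in single-plant replicates 1 to 3 (log2). The groups did not overlap, narrowly between canopy replicate 1 and single replicate 1, as with the canopy higher for 7.71% of all probe sets. SRC2's difference of 0.22 ± 0.09 (log2, SE) had an unadjusted limma p of 0.0485, under 0.05 as for 12.2% of all probe sets. Its limma adjusted p was 0.403, and the difference was 0.26 without canopy replicate 1.

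Of 9 such genes named for dehydrins or LEA proteins, 6 have a probe set of their own, 4 with a positive and 2 with a negative difference. Among the 6, limma called 0, beside 0.677% of all probe sets, and 0 had an unadjusted p under 0.05, beside 12.2%. This count leaves out the dehydrin LTI30 and LEA4-5, which stand among the cold-responsive genes, and COR47. Canopy replicate 1 was the lowest canopy array for 3 of the 6, beside 36.8% of all probe sets. AT1G54410, the small dehydrin HIRD11, is 1 of these 3 and was bright, at 8.26 ± 0.03 on canopy arrays and 8.17 ± 0.09 on single-plant arrays (log2, SD, n = 3 each; limma adjusted p = 0.762). Its lowest canopy value was 8.23 and its highest single-plant value 8.22, so the groups narrowly did not overlap. This held for 1 of the 6, and with the canopy higher for 7.71% of all probe sets. AT2G44060 (LEA26) read 7.66, 7.22 and 7.21 in canopy replicates 1 to 3, against 7.0, 7.17 and 7.27 in single-plant replicates 1 to 3 (log2). Canopy replicate 1 was its highest array, and its difference was 0.22 ± 0.14 with all arrays and 0.07 without that one. AT2G21490, with a dim signal, differed by 0.11 ± 0.10, and AT2G46140 by -0.08 ± 0.09 (log2, SE). Without canopy replicate 1 these differences were 0.20 and -0.12.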
